A study of Mus musculus with 10 samples.

Results

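Interscapular brown fat (iBAT) was examined for 5 genes that make and split N-acetylaspartate (NAA) or charge free acetate and propionate with coenzyme A: Nat8l, Aspa, Acss1, Acss2 and Acss3. They are 5 of the 15075 genes with a value, and all 5 passed the filter on low values that 11244 genes passed. The genes were chosen by their symbols, with the difference between the groups already known for them, so their values are given as a description with no test. The study made RNA sequencing libraries from the iBAT of 5 Control and 5 AdCKO mice, with 1 library per mouse. AdCKO mice carried homozygous floxed Crls1, with loxP sites around exon 4, together with Adipoq-Cre, a transgene that the adiponectin promoter drives in white and brown adipocytes alike. Control mice carried the same floxed alleles without Cre, although the sample labels call them wild type, and no mouse without floxed Crls1 and no mouse with Cre alone was analysed here. All mice were C57BL/6, 20 weeks old and kept at room temperature, and the tissue was used whole, so each library also holds RNA of the vessels, nerves and immune cells in the depot.

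NAT8L, aspartate N-acetyltransferase, joins the acetyl group of acetyl-CoA to aspartate and releases NAA. ASPA, aspartoacylase, splits NAA back into acetate and aspartate, and is best known from oligodendrocytes, where its loss causes Canavan disease. Free acetate enters metabolism again through the acetyl-CoA synthetases ACSS2, in the cytosol and nucleus, and ACSS1, in the mitochondrial matrix, while the related matrix enzyme ACSS3 prefers propionate. Brown adipocytes both burn acetyl-CoA and build fatty acids from it, and they are a known site of NAA synthesis outside the nervous system.

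Values are normalized exon reads per kb of counted exon as the authors deposited them, so levels can be compared between genes. The summed normalized reads of a library lay between 7615400 and 8171140 for Control and between 5419800 and 5843020 for AdCKO mice, and the depth before normalization is unknown. Crls1, the targeted gene, averaged 1060 ± 191 normalized reads per kb in Control libraries and 217 ± 26.4 in AdCKO libraries (SD, n = 5 each, limma adjusted p = 3.53e-08), counted over all of its exons and not over the deleted exon 4 alone. Markers fitted the tissue label: Ucp1 averaged 36912 in Control and 14069 in AdCKO iBAT. Of the 8 adipocyte markers 7 were called lower and none higher, and their summed level lay between 178428 and 213994 in Control and between 122646 and 142632 in AdCKO libraries. Of the 9 brown adipocyte markers 6 were called lower and none higher, with sums from 61834 to 84564 and from 18419 to 39218. All 9 macrophage markers were called higher (433 to 1232 against 5885 to 7893), as were all 5 fibroblast markers (886 to 1168 against 3571 to 5033). Of the 5 endothelial markers, 1 was called higher (1303 to 1639 against 1348 to 1833). The summed 8 skeletal muscle markers lay between 99.9 and 128 in Control libraries, were 148 and 133 in AdCKO libraries 3 and 5, and reached 6322, 23756 and 9155 in AdCKO libraries 1, 2 and 4. Only Acta1 of these 8 was called higher. The 4 Y-linked genes listed summed to between 398 and 618 in Control and between 327 and 412 in AdCKO libraries. Of these 4, 1 was called lower and none higher. The part of these shifts in the results below was not tested, and in whole tissue fewer cells of a type and less RNA per cell cannot be told apart.

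Across all 11244 tested genes, 28.0% were called lower and 25.6% higher in AdCKO iBAT (limma on log2(value + 1), Benjamini-Hochberg adjusted p under 0.01), and the median log2 fold change was -0.01. In 26.4% of tested genes every AdCKO library lay below every Control library. Each of the 5 members was among the genes called lower and among those whose groups did not overlap, which the choice of members fixes. When all libraries were scaled to equal totals, the median of all genes moved to 0.46, and 13.9% of calls were lower and 86.1% higher in place of 52.3% and 47.7%. Relative to that median the members then stood at -2.31 for Nat8l, -0.64 for Aspa, -2.40 for Acss1, -2.27 for Acss2 and -2.29 for Acss3.

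Nat8l, the NAA-forming enzyme, had 635.6, 741.9, 674.0, 641.5 and 677.8 normalized reads per kb in the 5 Control libraries, and 126.5, 127.6, 115.4, 153.5 and 148.3 in the 5 AdCKO libraries. The groups stood far apart: the lowest Control value was 4.14 times the highest AdCKO value. The means were 674 ± 42.3 and 134 ± 16.0 (SD, n = 5 each), so that 19.9% of the Control level remained, and the log2 fold change was -2.33 (SE 0.09). By the size of this decrease Nat8l ranked 34 of the 11244 tested genes. By level per kb, Nat8l ranked 743 of 15075 genes in Control and 3382 in AdCKO iBAT. The gene (NM_001001985) lies on the plus strand at chr5:34338633-34348565 of mm9 and has 3 exons. Of its 6529 counted bases 897 are coding, so that most of its reads per kb are counted over untranslated sequence. No annotated gene overlaps it.

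Aspa, which undoes the NAT8L reaction, had 441.2, 423.4, 426.2, 441.3 and 414.2 normalized reads per kb in Control libraries, and 257.1, 263.0, 317.3, 232.1 and 293.0 in AdCKO libraries. Control libraries were tightly grouped, with a spread of 2.75% of their mean, against 12.2% in AdCKO libraries, and the lowest Control value was only 1.31 times the highest AdCKO value. The means were 429 ± 11.8 and 272 ± 33.1 (SD, n = 5 each), or 63.5% of Control, and the log2 fold change was -0.66 (SE 0.08). A larger decrease was seen in 13.0% of the tested genes, whereas it was seen in 0.249% to 0.329% for the other 4 members. Aspa was lowest in AdCKO library 4 and highest in AdCKO library 3. With equal totals the log2 fold change of Aspa was -0.18, where the median of all genes was 0.46. Without AdCKO libraries 1, 2 and 4, which had high skeletal muscle markers, its log2 fold change was -0.49, while that of Nat8l was -2.35. The gene (NM_023113) lies on the minus strand at chr11:73118490-73138139 with 6 exons, and 936 of its 1537 counted bases are coding.

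Because ASPA is an oligodendrocyte enzyme, markers of glia and neurons were set beside it. The myelin genes Mag and Mog averaged 1.30 and 0.345 in Control and 1.66 and 0.338 in AdCKO iBAT. The neuronal Tubb3 averaged 1.86 and 2.34. These 3 genes, which did not pass the filter, were far below Aspa. The 4 glial markers that passed the filter (Mbp and Sox10 among them) were called higher in AdCKO iBAT. The sum of the 7 markers with a value was 108 to 125 in Control libraries and 176 to 432 in AdCKO libraries, so it was higher in AdCKO iBAT, where Aspa was lower. That sum lay above Aspa in AdCKO library 1 (432.0 against 257.1) and AdCKO library 4 (249.6 against 232.1), and below it in the other libraries. The part of glial and nerve RNA in the Aspa level was not tested.

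**Figure D1:**
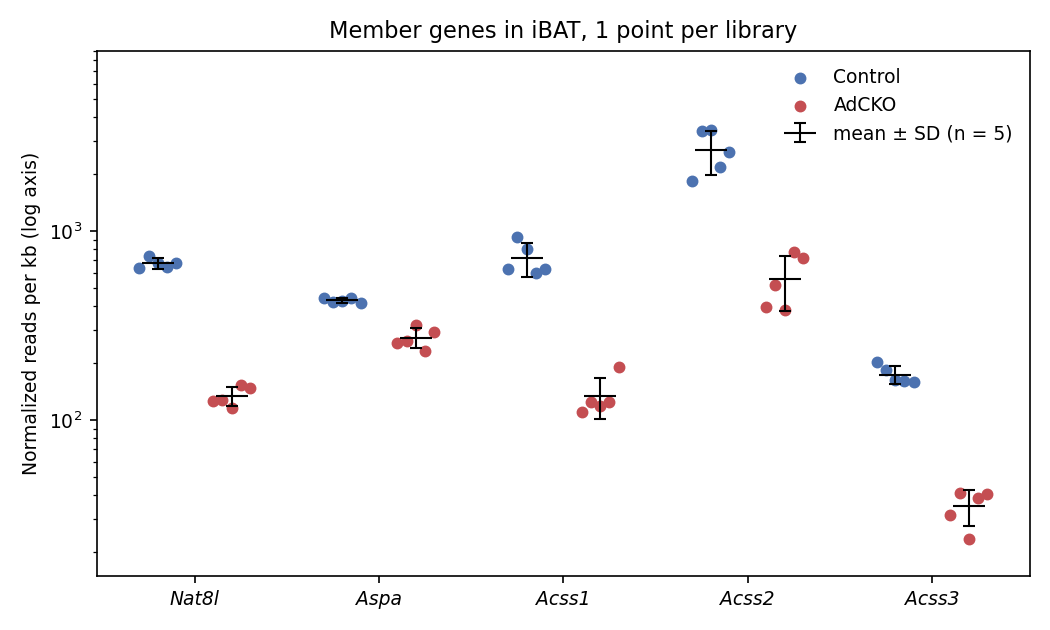
Normalized reads per kb (log axis) of the 5 members in each of the 5 Control (blue) and 5 AdCKO (red) iBAT libraries, with black bars for the mean ± SD. The groups do not overlap for any member, and the gap is widest for Nat8l and narrowest for Aspa.

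Acss2, the cytosolic and nuclear acetyl-CoA synthetase, was the most abundant member. It had 1850, 3389, 3440, 2190 and 2605 normalized reads per kb in Control libraries and 398.7, 520.2, 379.8, 773.7 and 723.2 in AdCKO libraries. It was also the most variable member, with Control values 1.86-fold and AdCKO values 2.04-fold apart, yet the lowest Control value was 2.39 times the highest AdCKO value. The means were 2695 ± 709.8 and 559 ± 181.9 (SD, n = 5 each), or 20.7% of Control, with a log2 fold change of -2.29 (SE 0.23). Acss2 ranked 178 of 15075 genes by level in Control and 777 in AdCKO iBAT. It lies on the plus strand at chr2:155343779-155388479 (NM_019811, 18 exons in the annotated transcript, 2720 counted bases). Its span overlaps Ggt7 and the non-coding 4930471I20Rik on the minus strand, by 195 and 9891 bases in the GENCODE annotation. Whether strand was used in counting is not given in the sources used here, so reads of these overlaps cannot be assigned with certainty.

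Acss1, the matrix enzyme that charges acetate, had 629.8, 930.9, 799.6, 596.4 and 629.0 normalized reads per kb in Control libraries and 110.5, 123.9, 119.0, 125.1 and 190.9 in AdCKO libraries. AdCKO library 5 stood above the other 4 AdCKO libraries, which lay between 110.5 and 125.1, and it was still below every Control library. The means were 717 ± 143.6 and 134 ± 32.4 (SD, n = 5 each), or 18.7% of Control, with a log2 fold change of -2.42 (SE 0.16). Without AdCKO library 5 the log2 fold change was -2.55. Acss1 lies on the minus strand at chr2:150443847-150493976 (NM_080575, 14 exons, 2046 coding of 3521 counted bases). The long non-coding RNA E130215H24Rik overlaps its span by 747 bases on the other strand.

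Acss3, the matrix enzyme that prefers propionate, was the least abundant member. It had 202.9, 184.6, 161.9, 160.6 and 159.4 normalized reads per kb in Control libraries and 31.3, 41.1, 23.4, 38.8 and 40.7 in AdCKO libraries. AdCKO library 3 was the lowest and lay 1.76-fold below AdCKO library 2. The means were 174 ± 19.3 and 35.1 ± 7.63 (SD, n = 5 each), or 20.2% of Control, with a log2 fold change of -2.30 (SE 0.14). By level it ranked 2813 of 15075 genes in Control and 8132 in AdCKO iBAT. It lies on the minus strand at chr10:106373220-106560720 (NM_001142804, 16 exons), no annotated gene overlaps it, and 2046 of its 2130 counted bases are coding.

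The order of the members changed at 1 place. In Control iBAT Acss2 stood highest, followed by Acss1 and Nat8l, then Aspa and then Acss3. Acss1 and Nat8l did not differ beyond their spread, Acss1 being the higher in 2 of 5 Control and 2 of 5 AdCKO libraries. In AdCKO iBAT Aspa stood second, above Nat8l and Acss1 in all 5 libraries, while it had been below both in all 5 Control libraries. The ratio of Nat8l to Aspa within a library was 1.44, 1.75, 1.58, 1.45 and 1.64 in Control and 0.492, 0.485, 0.364, 0.662 and 0.506 in AdCKO iBAT. A ratio within a library does not depend on how libraries are scaled to each other, and it fell on either side of 1 without overlap between the groups. Its place relative to 1 does depend on the counted bases, which were 6529 for Nat8l and 1537 for Aspa. Both genes were chosen with the group difference known, and ratios of other gene pairs were not computed for comparison.

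The shares of the 3 synthetases in their sum overlapped between the groups. Their summed level was 2682 to 4505 normalized reads per kb in Control libraries and 522 to 955 in AdCKO libraries. Acss2 made up 69.0% to 78.2% of that sum in Control and 72.7% to 82.5% in AdCKO libraries, Acss1 18.2% to 23.5% and 13.3% to 22.8%, and Acss3 3.68% to 7.56% and 4.14% to 5.99%. AdCKO library 4 had the largest share of Acss2 and the smallest of Acss1.

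**Figure D2:**
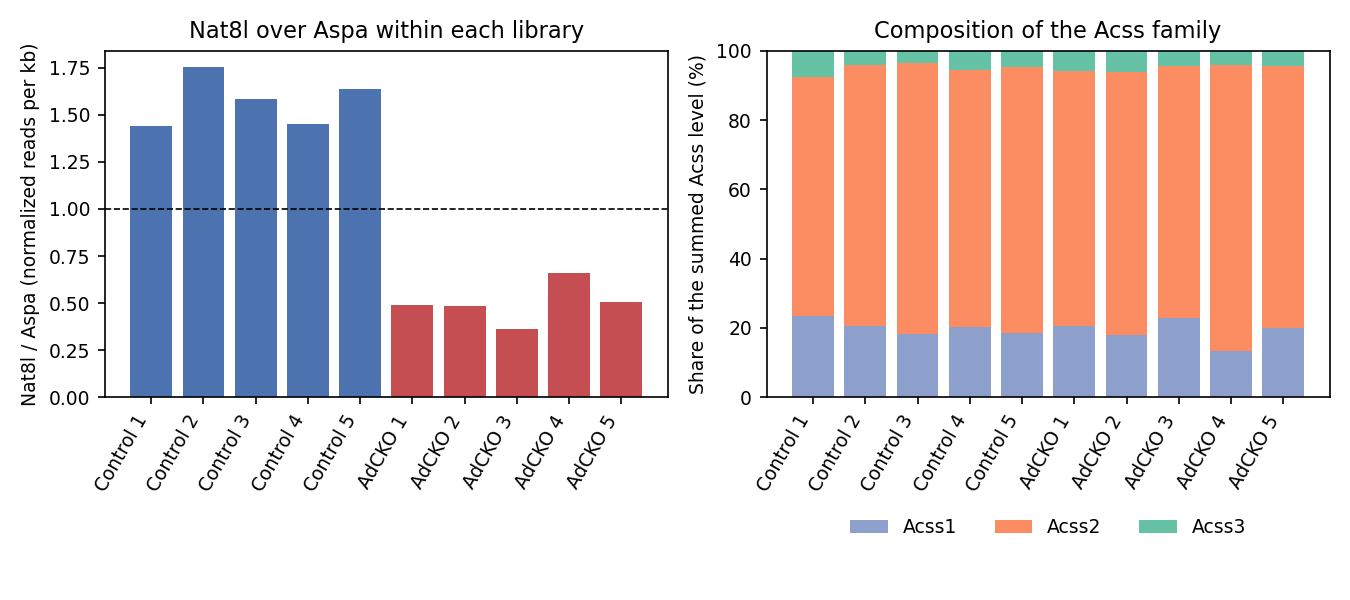
Left, ratio of Nat8l to Aspa in each library, with a dashed line at 1 (blue, Control, red, AdCKO). Right, share (%) of Acss1, Acss2 and Acss3 in their summed normalized reads per kb. All Control ratios lie above 1 and all AdCKO ratios at or below 0.662, whereas the Acss shares overlap between the groups.

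The members were also expressed as a percentage of the geometric mean of the 8 adipocyte markers in the same library. That mean lay between 7552 and 8518 normalized reads per kb in Control and between 3844 and 5007 in AdCKO libraries. On this scale Nat8l lay between 8.16% and 8.98% in Control and between 2.55% and 3.23% in AdCKO libraries. Acss1 ran from 7.82% to 10.9% and from 2.34% to 3.93%, Acss2 from 23.7% to 42.1% and from 8.42% to 16.3%, and Acss3 from 1.98% to 2.60% and from 0.608% to 0.838%. Relative to the adipocyte markers these 4 genes were lower in AdCKO iBAT, with no overlap between the groups. Aspa was not: it lay between 4.97% and 5.79% in Control and between 4.88% and 8.25% in AdCKO libraries, with means of 5.43% ± 0.33 and 5.97% ± 1.34 (SD, n = 5 each). The adipocyte markers themselves differed between the groups, so this scale describes a relation and does not correct for cell number. The share of all tested genes without overlap on this scale was not computed. As the members were chosen with the group difference known, their lack of overlap on it is a description only.

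RefSeq promoter windows (GRCm38.p6) were found for 3 of the 5 members, Acss1, Acss2 and Aspa, and not for Nat8l and Acss3. They are shown as a description of the members for which a window was found. Whether promoter sequence bears on the log2 fold changes was not tested. The 250 bases before the annotated start are printed 5′ to 3′ on the strand of the gene, with CG dinucleotides in capitals, at chr2:150668241-150668490 (minus strand) for Acss1, chr2:155517793-155518042 (plus strand) for Acss2 and chr11:73324638-73324887 (minus strand) for Aspa.
Acss1: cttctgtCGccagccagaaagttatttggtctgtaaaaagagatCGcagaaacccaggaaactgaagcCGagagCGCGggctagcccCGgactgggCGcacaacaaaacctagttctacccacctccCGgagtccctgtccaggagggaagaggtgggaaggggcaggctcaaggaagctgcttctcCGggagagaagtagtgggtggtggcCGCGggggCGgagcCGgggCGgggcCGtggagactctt
Acss2: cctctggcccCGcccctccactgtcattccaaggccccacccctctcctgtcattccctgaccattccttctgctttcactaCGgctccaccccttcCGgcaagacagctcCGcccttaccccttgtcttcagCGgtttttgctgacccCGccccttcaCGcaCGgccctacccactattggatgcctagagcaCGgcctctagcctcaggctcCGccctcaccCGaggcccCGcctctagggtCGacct
Aspa: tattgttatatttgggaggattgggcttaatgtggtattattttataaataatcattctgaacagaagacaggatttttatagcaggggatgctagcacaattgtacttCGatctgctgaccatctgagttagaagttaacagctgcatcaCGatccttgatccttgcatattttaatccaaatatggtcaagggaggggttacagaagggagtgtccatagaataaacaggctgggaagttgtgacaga
Acss1 held 15 CG dinucleotides and Acss2 held 13, more than in 72.7% and 68.5% of the 32851 windows in the table. Aspa held 2, where the median window held 6 and 18.8% held fewer. The GC content was 61.6%, 64.0% and 38.8% in the same order. Both strands of the windows, with the 50 bases after the start included, were searched for 4 motifs: the ERR element TCAAGGTCA, the sterol regulatory element TCACNCCAC, the C/EBP-ATF element TGATGNAAN and the E-box CACGTG. None of the 3 windows held any of these letters, which 0.423%, 1.24%, 3.95% and 7.15% of all windows did.

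Genes around the members were grouped into 8 lists by role. Of 118 listed genes 110 had a value and 97 were tested. Of these, 61 were called lower (62.9%, against 28.0% of all tested genes), 7 were called higher and 29 were not called, with a median log2 fold change of -0.66. With equal totals, 26 of the 97 were called higher. Every list count below stands beside 28.0% called lower and 25.6% called higher among all tested genes. Changes are given below as log2 fold changes (AdCKO over Control). The lists were drawn up with results of these data known, so their counts are a description and not independent evidence of a direction.

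The list closest to Nat8l and Aspa, of enzymes and transporters of NAA, N-acetylaspartylglutamate (NAAG) and other acylated amino acids, had 8 genes with a value and 3 tested. Rimkla, a NAAG synthetase, the NAAG peptidases Folh1 and Naaladl1, and Nat8, a relative of Nat8l, had means under 1 normalized read per kb in both groups. Slc13a3, a sodium-coupled carrier that takes up NAA, averaged 3.54 and 3.90, and these 5 genes were below the filter. Naalad2, another peptidase of the NAAG family, rose from 11.7 ± 2.27 to 17.8 ± 1.03 normalized reads per kb (limma adjusted p = 0.00103, log2 fold change 0.59). This call was lost without AdCKO libraries 1, 2 and 4 and under quantile normalization. The aminoacylases Acy1 and Acy3 were not called, at -0.19 and -0.31.

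The aspartate genes went in both directions, as did all tested genes. Of 17 tested, 7 were called lower, 4 higher and 6 were not called, with a median of -0.14. The share called lower was 41.2%, and over all tested genes 28.0% were called lower and 25.6% higher. Got1, the cytosolic aspartate aminotransferase, had 105.1, 111.7, 110.8, 137.3 and 121.9 normalized reads per kb in Control and 644.5, 770.6, 730.0, 522.5 and 571.0 in AdCKO libraries. The change was 2.45 ± 0.11 (SE, limma adjusted p = 1.13e-08), in the direction opposite to Nat8l and of like size. Got2, its mitochondrial counterpart, rose by 1.02 (SE 0.12, limma adjusted p = 1.34e-05). Slc25a12, an aspartate-glutamate carrier of the inner mitochondrial membrane, rose from between 11.1 and 12.4 in Control libraries to 58.8, 82.3, 27.9, 49.5 and 27.0 in AdCKO libraries 1 to 5. Its 3 highest values were in the AdCKO libraries with skeletal muscle RNA, and every AdCKO value lay above every Control value.

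Cad, which spends aspartate on pyrimidines, fell to a log2 fold change of -1.64, and Slc1a3, a plasma membrane aspartate and glutamate transporter, fell (-1.30). The shuttle genes Slc25a11, the oxoglutarate carrier, Mdh1 and Mdh2, the malate dehydrogenases, fell (-0.82, -0.54 and -0.85), but Mdh2 stood at 0.02 under quantile normalization, and the call of Mdh1 was lost under it and with equal totals. Glud1, glutamate dehydrogenase, and Adsl, adenylosuccinate lyase, fell (-0.44 and -0.35), and both turned to slightly positive values with equal totals. Asns, asparagine synthetase, which uses aspartate, was not called, at 0.18.

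Genes that supply or use acetyl-CoA in mitochondria were called lower in 14 of 15 cases, with none higher and a median of -1.12. The pyruvate dehydrogenase subunits Pdha1, Dlat and Pdhb fell (-1.63, -1.36 and -1.02). The thiolases Acaa2 and Acat1 fell (-1.74 and -1.71), as did Crat (-1.04), which moves acetyl groups onto carnitine. Cs, citrate synthase, fell (-0.66) but stood at 0.16 under quantile normalization, which also lost the call of Pdhb, and was not called with equal totals or without AdCKO libraries 1, 2 and 4. Oxct1, which activates ketone bodies, fell (-0.29, limma adjusted p = 0.00604). That call was lost in 8 of the 10 fits that left out 1 library (all but those without AdCKO library 2 or Control library 3), and the sign turned with equal totals.

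Cytosolic acetyl-CoA genes were called lower in 9 of 14 cases and higher in 2, with a median of -1.02. The largest decreases were those of fatty acid synthesis: Fasn, fatty acid synthase, fell (-2.90, SE 0.24, limma adjusted p = 7.03e-07), and the acetyl-CoA carboxylases Acaca and Acacb fell (-2.56 and -2.07). Acly, which cleaves citrate to acetyl-CoA and so runs beside Acss2, had 9468, 15056, 13400, 10586 and 11371 normalized reads per kb in Control and 2351, 2620, 1935, 4441 and 3464 in AdCKO libraries. It fell (-2.06, SE 0.21, limma adjusted p = 3.56e-06). Within a library the ratio of Acly to Acss2 was 3.90 to 5.12 in Control and 4.79 to 5.90 in AdCKO iBAT. Slc25a1, the citrate carrier, fell (-1.73), as did Acat2, the cytosolic thiolase (-1.83), and Slc33a1, the acetyl-CoA transporter of the endoplasmic reticulum (-0.73).

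Ffar2, a cell surface receptor for acetate and propionate, was low and rose from 11.7 ± 1.45 to 42.1 ± 9.39 (SD, n = 5 each, log2 fold change 1.74, limma adjusted p = 5.44e-07). It rose along with the macrophage marker sums given above, and their part was not tested. Slc16a1, a monocarboxylate carrier, rose by 0.49 (limma adjusted p = 0.00214), whereas Slc16a7, of the same family, fell (-1.09). With equal totals 5 genes of this list were called higher in place of 2. The acetyl-CoA hydrolases Acot12 and Acot8 were not called, at 0.45 and -0.14.

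The route from propionyl-CoA onward, which takes up the product of ACSS3, was called lower in 10 of 11 cases with none higher, at a median of -1.28. Pcca and Pccb, the propionyl-CoA carboxylase subunits, each fell (-1.50, limma adjusted p = 4.16e-08 and 3.15e-07). Mut, methylmalonyl-CoA mutase, fell (-1.28), and Mmab and Mmaa, which supply its cobalamin cofactor, fell (-1.54 and -1.39). Aldh6a1, which makes propionyl-CoA from valine and thymine breakdown, fell (-1.67). Mmadhc, a cobalamin trafficking gene, was not called, at -0.13, and was called higher (0.35) with equal totals.

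Related synthetases and the deacylases that act on them were called lower in 7 of 8 cases with none higher, at a median of -1.28. Acsm3, a medium-chain synthetase, had the largest decrease of all listed genes, from 371.8, 175.1, 287.5, 219.9 and 276.8 in Control libraries to 10.5, 10.2, 10.6, 14.1 and 27.0 in AdCKO libraries. It fell (-4.16, SE 0.26, limma adjusted p = 7.81e-08). Eri2 overlaps Acsm3 on the other strand, so its reads are uncertain in the same way as those of Acss1 and Acss2. Aacs, the cytosolic acetoacetyl-CoA synthetase, fell (-1.91), as did Acsf3, which charges malonate (-1.70). Sirt3, the mitochondrial deacetylase known to activate ACSS1, fell (-1.22, limma adjusted p = 1.19e-06), as did Sirt5 (-1.35), the mitochondrial desuccinylase. Sirt1, the nuclear deacetylase that acts on ACSS2, was not called, at 0.05 (SE 0.15). Acsf2 and Aasdh fell (-0.47 and -0.35), and both turned to positive values with equal totals and lost their call without AdCKO libraries 1, 2 and 4.

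Genes of the sterol response and of lipogenesis, which include regulators of Acss2, were called lower in 9 of 15 cases with none higher, at a median of -0.71. Those that fell most were lipogenic: Thrsp at -2.60, Pnpla3 at -2.54, Elovl6 at -2.23, Scd1 at -1.90 and Mlxipl, which encodes ChREBP, at -1.79. Srebf1, which encodes the lipogenic SREBP, fell (-0.71, limma adjusted p = 0.000465). Insig1, a sterol-regulated brake on SREBP processing, fell (-1.01), while Srebf2 (-0.10) and the sterol synthesis gene Sqle (-0.20) were not called. With equal totals the call of Srebf1 was lost and 2 genes of the list were called higher, and the call of Scd1 was lost under quantile normalization.

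Protein acetylation genes, which use acetyl-CoA or release acetate, gave 5 calls lower and none higher of 14, with a median of -0.14. The share called lower was 35.7%, against 28.0% of all tested genes. Hdac5, Hdac3 and Kat2b fell (-0.63, -0.52 and -0.41), while the acetyltransferases Ep300 and Crebbp were not called, at -0.13 and 0.03. This list depended on scaling: with equal totals none was called lower and 8 were called higher, and Kat2b turned to 0.07.

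**Figure D3:**
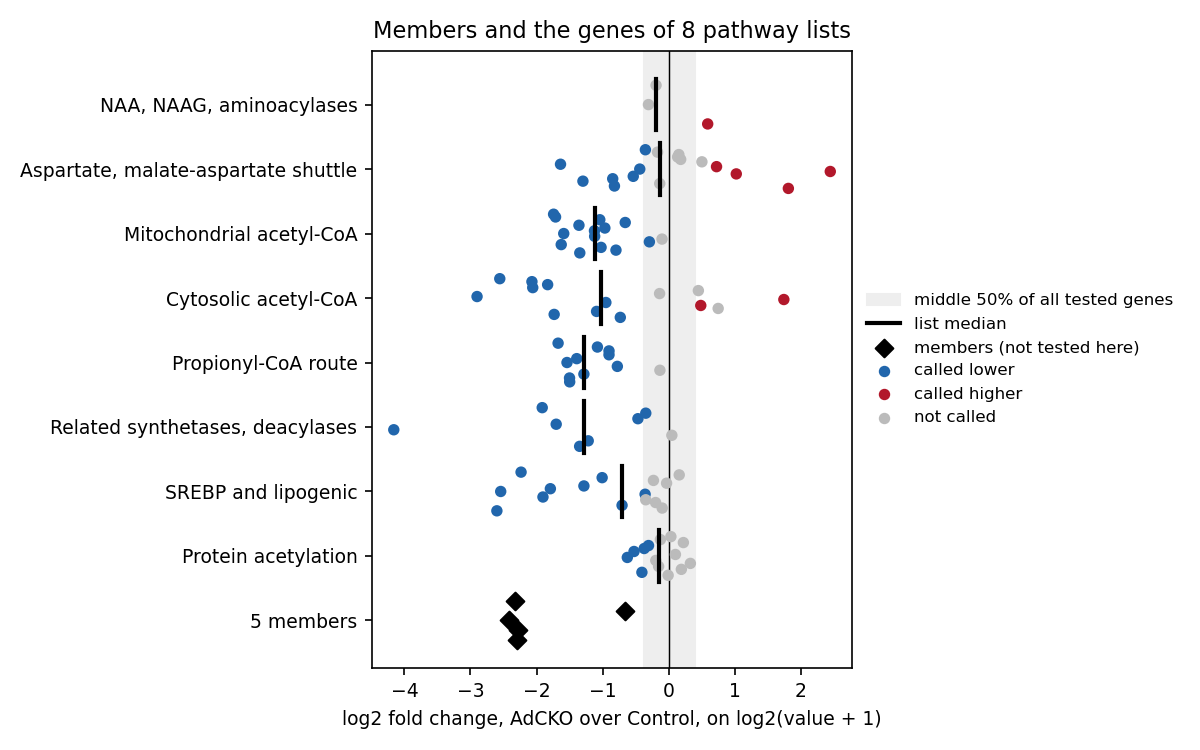
Log2 fold change (AdCKO over Control, on log2(value + 1)) of each tested gene of the 8 lists, coloured by its call, with black bars at list medians, the middle 50% of all tested genes in grey and the 5 members as diamonds. The members other than Aspa lie near -2.3, beyond the medians of all 8 lists. Some listed genes lie lower than these members, down to -4.16.

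Likeness of pattern was measured by Pearson's r over the 10 libraries, and again over the deviations of the 10 libraries from their group means, which leaves out the difference between the groups. Over all libraries most genes that differ between the groups correlate highly, so the first measure mainly ranks genes by the group difference. The genes most like each member were Rcbtb2 and Mpc1 for Nat8l (0.998 each), Sdhd for Aspa (0.992), Acads for Acss1 (0.998), Acly and Thrsp for Acss2 (0.995 and 0.993) and Mettl7a1 for Acss3 (0.996).

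Over the deviations, Nat8l was most like Tmem79 (0.979), Pygl (0.977) and Cyb5r3 (0.975), with Acly at the fourth place (0.965), and Acss2 was most like Tlcd2 (0.965), Tecr (0.952), Acat2 (0.952) and Acly (0.948). Acss1 was most like Cbr3 (0.963), which had a log2 fold change of 2.14, and was again like Fahd2a (0.963) and Acads (0.960). Acss3 was most like Styx (0.981) and Aspa was most like Arl15 (0.958). Among the members Nat8l and Acss2 had the highest r (0.894), and Nat8l and Aspa the lowest (-0.551). Nat8l, Acss2, Acly, Slc25a1, Acaca and Fasn were above their group mean in AdCKO libraries 4 and 5 and Control library 2, and Aspa was furthest below its group mean in AdCKO library 4. These 10 points share libraries and scaling, and only 5 came from each group.

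**Figure D4:**
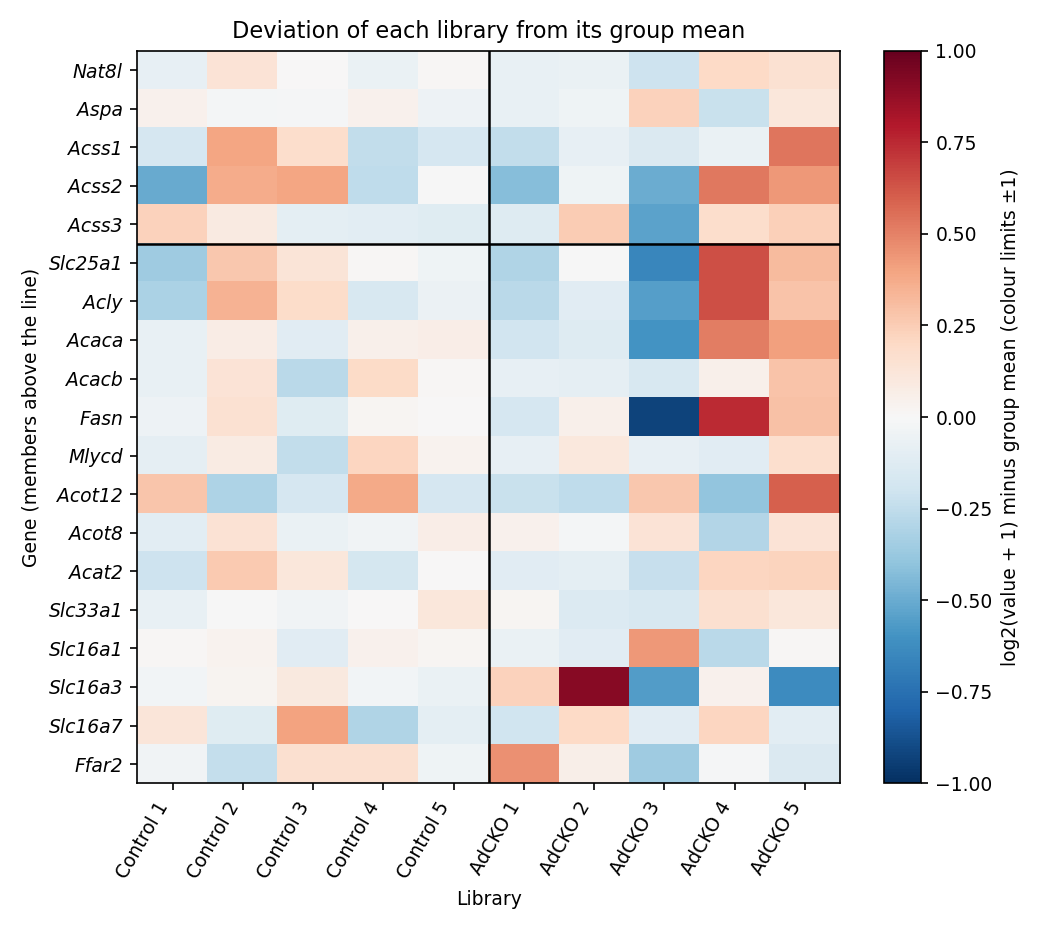
Deviation of log2(value + 1) from the group mean (colour, limits ±1) in each of the 10 libraries, for the 5 members (above the line) and the 14 tested genes of the cytosolic acetyl-CoA list. Acss2, Slc25a1 and Acly are high in AdCKO libraries 4 and 5 and low in AdCKO library 3, where Aspa is high.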

How the data were processed

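RNA from the iBAT of 5 Control and 5 AdCKO mice was compared, grouped by the sample labels. Expression was deposited by the authors as a signal in normalized exon reads per kb. Per the methods and labels, polyadenylated RNA was sequenced, mapped to mm9 with STAR, counted over exons with iRNA-seq and normalized with DESeq2, whose versions are not given in the sources used here. None of the values is 0, they are not counts, and as library depth is unknown no counting interval was computed. Columns of the authors' own comparisons (fold changes and adjusted p-values) were not used.

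The deposited values were compared on log2(value + 1) with limma 3.58.1 in R 4.3.3 (intensity trend, two-sided), over genes with a mean of at least 10 in Control or AdCKO, with Benjamini-Hochberg adjustment at 0.01. The study's own test, DESeq2 on counts, could not be run on these values. Fold changes on this scale understate those of low genes. The test was checked on simulated data, with independent noise of the Control spread in both groups and few changed genes. In the real data AdCKO libraries were less alike than Control libraries and far more genes were called. That check therefore covers the fit and not the calls. The members and lists were chosen with earlier results of these data known. Genes named are the members, Crls1, listed genes and, for each member, those among the 5 most alike by each measure. Exons and overlaps came from GENCODE vM1 (mm9). Promoters came from RefSeq. Protein sequences were not analysed here. Some listed genes are counted but not reported here by name. Tables and figures used pandas 2.3.3 and matplotlib 3.10.9 in Python 3.11.15. Alternatives were pseudocounts of 0.1 and 10, no filter, a mean of at least 1, the same total, quantile normalization, limma without trend, robust or with array weights, a replicate block, each library left out, and an adjusted p of 0.05. Leaving out the 3 AdCKO libraries with high skeletal muscle genes was chosen after seeing the data.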

Additional observations from a re-analysis of the deposited data

Results flagged for a closer look

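In 11 of 194 groups of 5 libraries (both groups of each member and of each tested list gene reported here), the highest or lowest library stood apart from the other 4 by a gap over 0.71 of the range (Dixon's 95% limit). About 1 in 20, or 9.7 groups, would do so by chance. Values are normalized reads per kb.

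In 5 of the 11 the library was AdCKO 5, and its value was the highest of its group: Acss1 at 190.9 (the other 4 between 110.5 and 125.1), Hibch at 793 (625 to 668), Acsf3 at 299.7 (194.5 to 222.4), Acsm3 at 27.0 (10.2 to 14.1) and Sirt3 at 247 (165 to 181). In each of these genes AdCKO 5 still lay below every Control library.

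In Control libraries, Slc25a12 was low at 11.1 in replicate 3 (12.2 to 12.4) and Slc16a1 at 521.8 in the same replicate (567 to 583). Pdhx was high at 767 in replicate 2 (692 to 713), as was Hdac5 at 177.6 (118 to 135). Oxct1 was high at 860.6 (713 to 751) in replicate 1, and Kat5 at 107 (84.8 to 90.3) in replicate 4.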

How the results depend on the processing

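The 5 members stayed lower under every alternative that was run. With libraries scaled to equal totals, log2 fold changes were -1.85 for Nat8l, -0.18 for Aspa, -1.94 for Acss1, -1.81 for Acss2 and -1.83 for Acss3, the median of all genes being 0.46. Calls then were 1098 lower and 6811 higher. In the lists 26 genes were called higher: 1 NAA gene, 9 aspartate genes (4 lower), 5 cytosolic, 1 propionyl-CoA, 2 lipogenic and 8 acetylation genes (0 lower). Signs turned for Adsl (0.12), Adss (0.31), Glud1 (0.042), Oxct1 (0.19), Acot8 (0.34), Mmadhc (0.35), Acsf2 (0.015), Aasdh (0.12), Srebf2 (0.38), Scap (0.12), Ep300 (0.35), Kat2b (0.071), Kat5 (0.47), Hdac2 (0.11), Hdac6 (0.28) and Hdac10 (0.17). Turned signs are named, here and below, only for genes called in the main fit or in the alternative. Under quantile normalization Aspa was at -0.51, the NAA list had 1 call lower and 0 higher, calls over all genes were 58.1% lower, and Mdh2 (0.015) and Cs (0.16) turned. Without AdCKO replicates 1, 2 and 4, Aspa was at -0.49, 0 NAA genes were higher and 3 acetylation genes lower. At an adjusted p under 0.05, 13 listed genes were higher, with 1 NAA gene lower and 3 acetylation genes higher. No filter and a mean of at least 1 each gave 1 propionyl-CoA gene higher. With 1 library left out, NAA genes called lower ran from 0 to 1 (1 without AdCKO replicate 5) and acetylation genes called higher from 0 to 1 (1 without Control replicate 5). Causes were not tested. Deviations of same-numbered libraries were weakly correlated at most (r from -0.268 to 0.098). Such correlations cannot exclude a pairing by number, and the labels state none. The replicate block gave 2838 lower and 2592 higher calls, with unchanged member values. Of the listed genes' other alternative values 2042 kept their call or their lack of one, 35 gained a call and 36 lost it. Those that kept their lack of a call include values whose sign turned. The depth of the libraries is unknown, so the precision of low genes such as Acss3 in AdCKO iBAT rests on the spread between mice.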
